A study of Homo sapiens with 6 samples.

Results

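The NRF2 targets and aldo-keto reductases described here were 10 of the 20046 genes named on the array: AKR1C1, AKR1C2, AKR1C3, TXNRD1, NQO1, HMOX1, GCLC, GCLM, SRXN1 and ABCC3. The array carried 19 probes annotated to them. A probe was kept where its detection p, the share of negative control beads at least as bright, was under 0.01 on 2 or more of the 6 arrays. This left 12 probes of 9 genes, each detected on all 6 arrays, among 18106 kept probes of 47323 on the array, and each probe is described on its own. AKR1C1 had no kept probe.

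Total RNA of MDA-MB-231, a human breast cancer cell line that lacks hormone receptors, was hybridised to Illumina expression BeadChips. In 1 group of 2 arrays the cells stably over-expressed the tRNA gene chr1.trna5 (Glu-TTC), in another of 2 arrays the tRNA gene chr16.trna1 (Arg-CCG), and 2 arrays held mock-transfected control cells. All groups were the same cell line, and the labels give no promoter for the tRNA genes and do not say whether a line is a clone or a pool. Separate cultures are not named for the 2 arrays of a group. Each p-value sets a difference against the spread between such arrays, and that spread may be technical. The spread was pooled over the 3 groups and drawn toward that of all kept probes, so an SE is not that of 2 arrays alone. The level of the over-expressed tRNAs was not analysed here.

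NRF2, encoded by NFE2L2, is a transcription factor that KEAP1 holds for degradation until oxidants or electrophiles modify KEAP1. NRF2 then pairs with small MAF proteins at antioxidant response elements and turns on genes for glutathione synthesis, the thioredoxin system, quinone and carbonyl reduction, heme breakdown and conjugate export. BACH1 competes for the same elements and represses HMOX1 in particular. The AKR1C enzymes reduce steroid ketones, prostaglandins and reactive carbonyls.

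Each array had 16650 to 17704 detected probes, and the 2 arrays of a group correlated across kept probes with r = 0.996 in every group, against 0.961 to 0.985 between groups. Of the MDA-MB-231 markers 9 of 9 with a probe were detected on 2 or more arrays. VIM and CD44 were detected on all 6, and ZEB1 on 4, at log2 levels of 4.67 to 6.34. Their summed log2 level was 98.53 and 99.11 on the control arrays, 99.89 and 99.98 on the tRNA-Arg arrays and 98.42 and 99.25 on the tRNA-Glu arrays. The luminal markers ESR1, PGR, FOXA1, CDH1, KRT18 and TFF1 were detected on no array. GATA3 was detected on 1 array, and ERBB2, EPCAM, KRT8, KRT19 and XBP1 on all 6 arrays. The summed log2 level of the 12 luminal markers was 73.92 and 73.95 on the control arrays, 75.58 and 75.79 on the tRNA-Arg arrays and 77.18 and 77.51 on the tRNA-Glu arrays. For 9 blood cell markers the sums were 53.29 and 53.41, 54.93 and 55.03, and 57.48 and 57.63 in the same order. Of these, PTPRC, CD3E, HBB, ITGAM and CD53 were detected on no array, and LAPTM5, CD68, CSF1R and CD14 on at least 5. For 10 fibroblast markers, with 7 detected on no array and COL1A1 on all 6, the sums were 45.94 and 46.30, 47.35 and 48.24, and 48.23 and 48.27. The sums include the markers that were detected on no array. The part of these markers in the results below was not tested.

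In the tRNA-Arg line AKR1C2, AKR1C3, HMOX1, both probes of GCLM and 1 probe each of TXNRD1 and NQO1 were higher than in control, and ABCC3 was lower. In the tRNA-Glu line AKR1C2, AKR1C3, HMOX1, 1 probe of TXNRD1 and 1 of GCLM were higher, and GCLC, ABCC3 and the other probes of TXNRD1 and GCLM were lower. Of the 12 probes 8 were called in the tRNA-Arg line, 7 higher and 1 lower, where 39.6% of all kept probes were called, 19.2% higher and 20.4% lower. In the tRNA-Glu line 9 were called, 5 higher and 4 lower, against 53.7% of all kept probes, 26.7% higher and 27.0% lower. The arrays of 2 of the 12 probes overlapped control in each line, and 71.3% of all kept probes in the tRNA-Arg line and 77.2% in the tRNA-Glu line did not overlap it. The median log2 difference of the 12 probes was 0.43 in the tRNA-Arg line and 0.05 in the tRNA-Glu line, beside -0.01 and 0.01 over all kept probes. The members were chosen with earlier results of these data known, so these counts and medians do not test them as a set. The 2 comparisons share the control arrays. Without control replicate 2 or tRNA-Arg replicate 2, 4 probes were called higher in the tRNA-Arg line. A probe was called at an adjusted p under 0.05 in limma's fit over all kept probes, and all levels are neqc-normalized log2 intensities, which can be set side by side across arrays but not across probes. The differences run as over-expression minus control, and the authors' deposited table has the opposite sign for 712 of 717 genes that differed by over 2-fold in the tRNA-Glu line and 410 of 411 in the tRNA-Arg line.

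**Figure D1:**
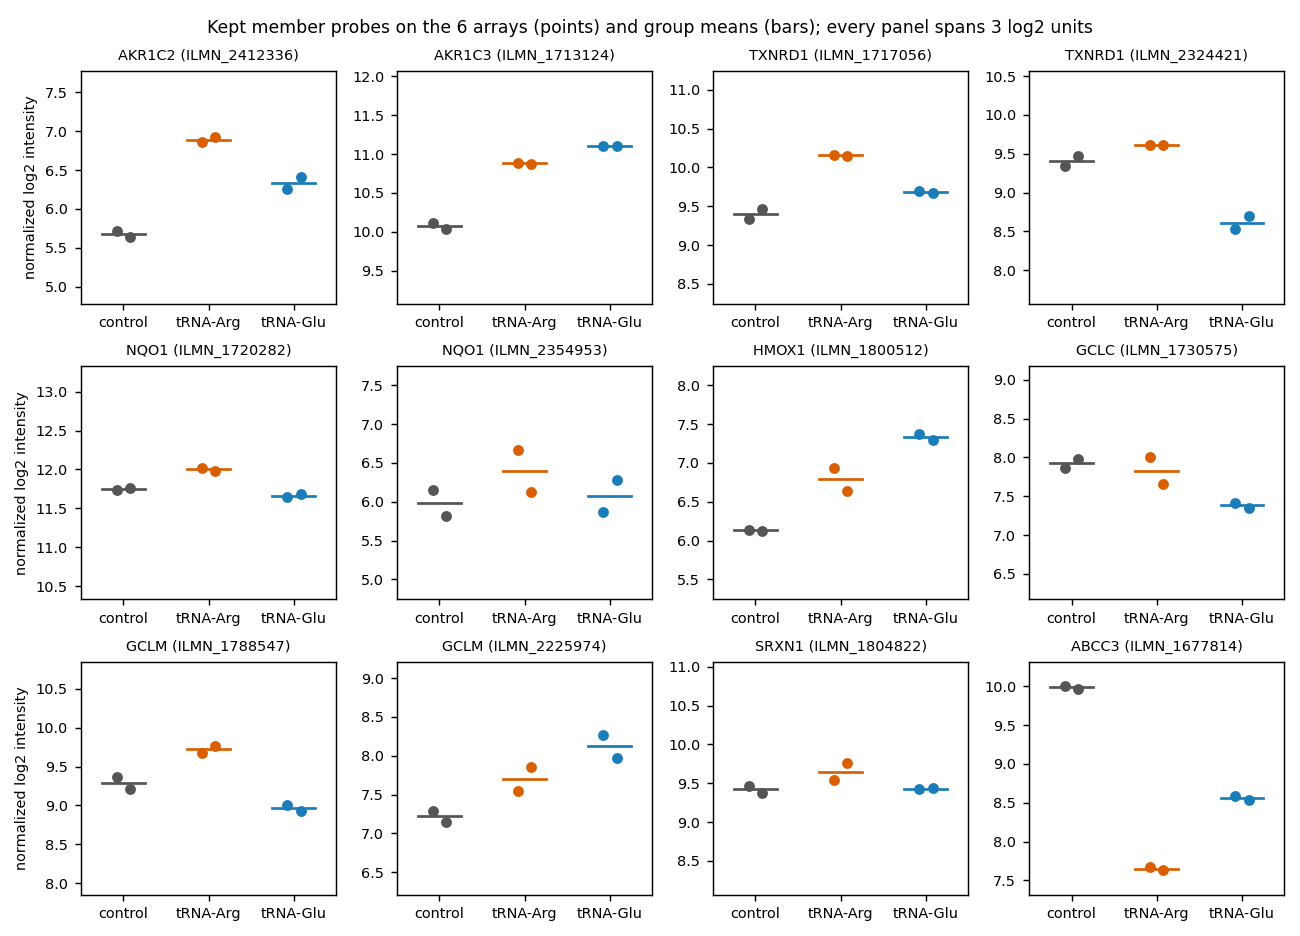
Normalized log2 intensity of each kept member probe (vertical axis) on the control, tRNA-Arg and tRNA-Glu arrays (horizontal axis), with points for arrays, bars for the means of 2 arrays and the same span in every panel. ABCC3 lies between 9.97 and 10.00 in control and at 8.58 or below in both lines, and the 2 probes of TXNRD1 and of GCLM show different orders of the groups.

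Among the aldo-keto reductases, AKR1C3, which makes testosterone and prostaglandin F2 alpha, was higher in both lines. Its log2 levels were 10.12 and 10.04 in control, 10.89 and 10.87 in tRNA-Arg cells and 11.11 and 11.11 in tRNA-Glu cells. Neither line overlapped control. The difference was 0.80 ± 0.08 (SE, n = 2 arrays per group) in the tRNA-Arg line (1.74-fold, limma adjusted p = 0.000529) and 1.03 ± 0.08 in the tRNA-Glu line (2.04-fold, adjusted p = 0.000114). Between the lines AKR1C3 was not called (0.23, 95% interval 0.04 to 0.41, adjusted p = 0.0652), and it was called in 8 of 19 alternatives.

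AKR1C2, which inactivates dihydrotestosterone, was measured by 1 kept probe of 6, ILMN_2412336. Its log2 levels were 5.72 and 5.64 in control, 6.86 and 6.92 in tRNA-Arg cells and 6.25 and 6.41 in tRNA-Glu cells. All 3 groups were apart, with control lowest and tRNA-Arg highest. The differences from control were 1.21 ± 0.09 (2.31-fold, adjusted p = 0.000199) and 0.65 ± 0.09 (1.57-fold, adjusted p = 0.00118), and the tRNA-Glu line was 0.56 below the tRNA-Arg line (1.47-fold, adjusted p = 0.00571). The other 5 probes of AKR1C2 were above background at a detection p under 0.05 on at most 2 arrays each. In the authors' deposited table, which holds 1 value per gene symbol, AKR1C2 stood at -0.12 for the tRNA-Arg line and -0.01 for the tRNA-Glu line.

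AKR1C1, which inactivates progesterone, had 1 probe, and its intensity was between 28.1 and 38.6 on the linear scale, and its detection p was 0.41948 or higher throughout. No level of AKR1C1 could be read from these arrays. AKR1C genes share closely similar sequences, so which of them a probe reads is uncertain. The promoters are shown because they put the likeness of the pair in view. In RefSeq's GRCh38.p14 annotation the 250 bases before the starts of AKR1C1 (chr10:4963165-4963414, plus strand) and AKR1C2 (chr10:5003858-5004107, minus strand) were 99.6% identical over 246 bases after a shift of 4 bases. Aligned in the same way, without gaps, those of AKR1C3 were at most 58.1% identical to either. An inserted or lost base lowers such a value, and identity with gaps was not measured. The capitals mark a match to TGANNNNGC, a loose form of the antioxidant response element, on the opposite strand.
AKR1C1: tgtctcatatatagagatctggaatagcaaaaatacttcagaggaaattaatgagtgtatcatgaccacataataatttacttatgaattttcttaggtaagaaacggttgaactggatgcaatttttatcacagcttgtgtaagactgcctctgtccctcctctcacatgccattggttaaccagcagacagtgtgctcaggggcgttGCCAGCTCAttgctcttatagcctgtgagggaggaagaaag
AKR1C2: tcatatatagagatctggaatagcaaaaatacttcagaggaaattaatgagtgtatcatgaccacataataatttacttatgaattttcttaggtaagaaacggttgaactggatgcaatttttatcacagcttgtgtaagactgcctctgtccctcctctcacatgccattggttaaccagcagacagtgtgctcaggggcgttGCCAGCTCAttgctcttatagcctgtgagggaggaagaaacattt

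TXNRD1 encodes cytosolic thioredoxin reductase, which keeps thioredoxin reduced with NADPH. Its 2 probes are annotated to different RefSeq transcripts, and they did not move alike. For ILMN_1717056 the log2 levels were 9.33 and 9.46 in control, 10.16 and 10.15 in tRNA-Arg cells and 9.69 and 9.67 in tRNA-Glu cells. Control was lowest and tRNA-Arg highest. This probe was 0.75 ± 0.08 higher in the tRNA-Arg line (1.69-fold, adjusted p = 0.000841) and 0.28 ± 0.08 higher in the tRNA-Glu line (1.22-fold, adjusted p = 0.0265). For ILMN_2324421 the levels were 9.34 and 9.47 in control, 9.61 and 9.61 in tRNA-Arg cells and 8.53 and 8.70 in tRNA-Glu cells. Here the tRNA-Glu arrays were lowest. This probe was 0.78 ± 0.10 lower in the tRNA-Glu line (log2 difference -0.78, 1.72-fold, adjusted p = 0.000596) and not called in the tRNA-Arg line (0.21, interval -0.02 to 0.43, adjusted p = 0.125). Averaged over both probes TXNRD1 differed by -0.25 in the tRNA-Glu line. The call of ILMN_1717056 in that line was lost without control replicate 1 (0.22), tRNA-Glu replicate 1 (0.27) or tRNA-Glu replicate 2 (0.29).

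Glutamate-cysteine ligase, the first and limiting enzyme of glutathione synthesis, has a catalytic subunit, GCLC, and a modifier subunit, GCLM. The kept probe of GCLC stood at 7.87 and 7.98 in control, 8.0 and 7.66 in tRNA-Arg cells and 7.42 and 7.35 in tRNA-Glu cells. Only the tRNA-Glu arrays lay apart from control. GCLC fell by 0.54 on the log2 scale in the tRNA-Glu line (SE 0.12, 1.45-fold, adjusted p = 0.00919) and was not called in the tRNA-Arg line (-0.10, interval -0.39 to 0.20, adjusted p = 0.572).

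Both GCLM probes are annotated to the same RefSeq transcript. For ILMN_1788547 the levels were 9.36 and 9.21 in control, 9.68 and 9.77 in tRNA-Arg cells and 9.01 and 8.93 in tRNA-Glu cells. It was higher by 0.44 ± 0.09 in the tRNA-Arg line (1.35-fold, adjusted p = 0.00976) and lower in the tRNA-Glu line (-0.32 ± 0.09, 1.24-fold, adjusted p = 0.0244). For ILMN_2225974 the levels were 7.29 and 7.15 in control, 7.55 and 7.86 in tRNA-Arg cells and 8.27 and 7.97 in tRNA-Glu cells. The order of the lines was thus the reverse of that at the other probe. This probe was higher in both lines, by 0.49 ± 0.14 in tRNA-Arg cells (1.40-fold, adjusted p = 0.0334) and 0.90 ± 0.14 in tRNA-Glu cells (1.87-fold, adjusted p = 0.00192). Averaged over both probes GCLM differed by 0.29 in the tRNA-Glu line. The tRNA-Glu call of ILMN_1788547 was lost with median scaling (-0.22) and without control replicate 1 (-0.24), tRNA-Glu replicate 1 (-0.35) or 2 (-0.28), its tRNA-Arg call without control replicate 2 (0.36) or tRNA-Arg replicate 2 (0.39), and the tRNA-Arg call of ILMN_2225974 without control replicate 1 (0.56) or 2 (0.42), without tRNA-Arg replicate 2 (0.33) and with no detection filter (0.49).

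The log2 ratio of the 2 probes was then fitted for all 2855 genes with several kept probes, taking the 2 of highest mean. This was done after the probe values had been seen. For TXNRD1 the ratio of ILMN_1717056 to ILMN_2324421 was 0.00 on both control arrays, 0.55 and 0.54 on the tRNA-Arg arrays and 1.16 and 0.97 on the tRNA-Glu arrays. It differed from control by 0.55 ± 0.12 in the tRNA-Arg line (adjusted p = 0.0285) and by 1.07 ± 0.12 in the tRNA-Glu line (adjusted p = 0.000677). Leaving out a control or tRNA-Arg array ended the tRNA-Arg call, with 0.54 to 0.55 and adjusted p of 0.0963 to 0.11. For GCLM the ratio of ILMN_1788547 to ILMN_2225974 was 2.08 and 2.07 in control, 2.13 and 1.91 in tRNA-Arg cells and 0.74 and 0.97 in tRNA-Glu cells. It differed by -1.22 ± 0.14 in the tRNA-Glu line (adjusted p = 0.000651) and was not called in the tRNA-Arg line (-0.05, adjusted p = 0.875). The ratio of the NQO1 probes was not called in either line, with adjusted p of 0.576 and 0.705. Over all 2855 genes the ratio was called for 26.7% in the tRNA-Glu line, 8.86% in the tRNA-Arg line and 11% between the lines. Where the probes lie in the transcripts was not analysed here.

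**Figure D2:**
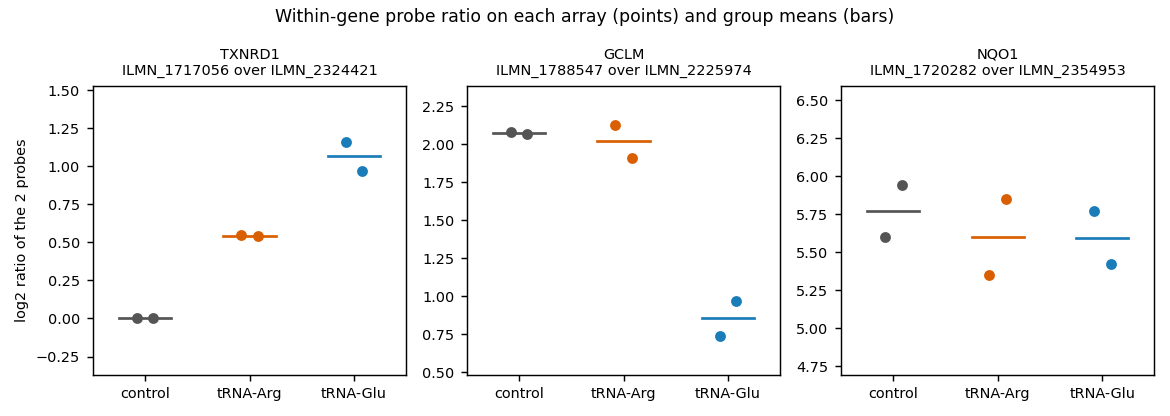
Log2 ratio of the 2 kept probes of TXNRD1, GCLM and NQO1 (vertical axis) on each array (points), with bars for group means, in control, tRNA-Arg and tRNA-Glu cells. The TXNRD1 ratio is 0.00 in control and 0.97 or more in tRNA-Glu cells, and the GCLM ratio is 2.07 or more in control and 0.97 or less in tRNA-Glu cells.

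The promoters of TXNRD1 and GCLM are shown because these 2 genes alone among the 8 members in RefSeq's promoter table hold TGACNNNGC, the core of the antioxidant response element, within 250 bases before a listed start. The search covered both strands. HMOX1 and ABCC3 had no entry in that table and were not searched. Of all 35116 promoter windows of this length, 10.9% held TGACNNNGC and 35.2% held TGANNNNGC, which includes every match to the first. Among the 8 members 2 genes held the first and 5 the second, counted by gene and not by window. TXNRD1 has 2 listed starts, with windows at chr12:104215529-104215778 and chr12:104286782-104287031 on the plus strand, and the GCLM window is chr1:93909431-93909680 on the minus strand (GRCh38.p14). Capitals mark TGACNNNGC or its reverse complement, whose first base lies 99 bases before the first TXNRD1 start, 102 before the other and 34 before the GCLM start. A match is a description of these letters only.
TXNRD1, first start: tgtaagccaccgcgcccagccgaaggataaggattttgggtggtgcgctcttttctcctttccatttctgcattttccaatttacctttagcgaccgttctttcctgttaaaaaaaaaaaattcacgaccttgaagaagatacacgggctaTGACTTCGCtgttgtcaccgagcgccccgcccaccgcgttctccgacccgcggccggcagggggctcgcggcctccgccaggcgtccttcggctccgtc
TXNRD1, other start: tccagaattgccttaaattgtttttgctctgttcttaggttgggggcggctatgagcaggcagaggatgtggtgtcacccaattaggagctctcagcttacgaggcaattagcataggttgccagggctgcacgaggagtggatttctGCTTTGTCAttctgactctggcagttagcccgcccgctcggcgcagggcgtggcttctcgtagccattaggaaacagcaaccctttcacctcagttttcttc
GCLM: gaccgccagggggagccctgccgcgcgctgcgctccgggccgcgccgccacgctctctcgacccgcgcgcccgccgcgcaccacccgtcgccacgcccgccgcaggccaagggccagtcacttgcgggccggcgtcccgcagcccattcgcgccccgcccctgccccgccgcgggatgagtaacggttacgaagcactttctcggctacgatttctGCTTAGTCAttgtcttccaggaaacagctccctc

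HMOX1, heme oxygenase, breaks heme down to biliverdin, iron and carbon monoxide. Its log2 levels were 6.14 and 6.12 in control, 6.94 and 6.64 in tRNA-Arg cells and 7.37 and 7.30 in tRNA-Glu cells. The 3 groups did not overlap. HMOX1 was 0.66 ± 0.11 higher in the tRNA-Arg line (1.58-fold, adjusted p = 0.00441) and 1.21 ± 0.11 higher in the tRNA-Glu line (2.31-fold, adjusted p = 0.000228). It was 0.55 higher in the tRNA-Glu than in the tRNA-Arg line (adjusted p = 0.0117), a call that was lost without tRNA-Arg replicate 2 (0.39) or tRNA-Glu replicate 1 (0.51).

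NQO1 encodes a quinone reductase that works by transfer of electron pairs, and SRXN1 encodes sulfiredoxin, which repairs overoxidized peroxiredoxins. The NQO1 probe ILMN_1720282 stood at 11.74 and 11.76 in control, 12.02 and 11.98 in tRNA-Arg cells and 11.64 and 11.69 in tRNA-Glu cells. It was 0.25 ± 0.08 higher in the tRNA-Arg line (1.19-fold, adjusted p = 0.0431), and this call held in 8 of 19 alternatives and was lost whenever any 1 of the 6 arrays was left out (0.225 to 0.27). In the tRNA-Glu line it was not called (-0.08, interval -0.27 to 0.10), and its difference was 0.20 with median scaling. The other NQO1 probe, ILMN_2354953, ranged from 5.82 to 6.67 with overlapping groups and was called in no comparison. SRXN1 stood at 9.47 and 9.37 in control, 9.54 and 9.76 in tRNA-Arg cells and 9.42 and 9.44 in tRNA-Glu cells. It was not called in the tRNA-Arg line (0.23, interval -0.01 to 0.47, adjusted p = 0.109) or in the tRNA-Glu line (0.01, interval -0.23 to 0.25, adjusted p = 0.936), and 3 alternatives called it in the tRNA-Arg line (0.22 to 0.33).

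ABCC3, a pump for bile salts and glucuronide conjugates, had the largest difference of the 12 probes in each comparison with control, and was lower in both lines. Its log2 levels were 10.00 and 9.97 in control, 7.67 and 7.63 in tRNA-Arg cells and 8.58 and 8.54 in tRNA-Glu cells. Control was highest and tRNA-Arg lowest, with no overlap. On the linear scale the non-normalized intensity was 873.8 and 1050 in control, 222.8 and 238.5 in tRNA-Arg cells and 460.7 and 340.9 in tRNA-Glu cells. ABCC3 fell by 2.33 on the log2 scale in the tRNA-Arg line (SE 0.08, 5.04-fold, adjusted p = 1.42e-05) and by 1.43 in the tRNA-Glu line (SE 0.08, 2.69-fold, adjusted p = 4.33e-05). Both calls held in all 19 alternatives, with differences of -2.37 to -2.16 and -1.45 to -1.31. For ABCC3 the authors' deposited table holds 1.03 and 0.67, which run opposite in sign to these differences and are smaller in size. Of 10868 other genes with a kept probe, HTRA1, a secreted serine protease, C5, a complement component, and KLRC2, a receptor of natural killer cells, had the log2 profiles nearest to that of ABCC3 over the 6 arrays after centring, at Euclidean distances of 0.188, 0.330 and 0.434.

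**Figure D3:**
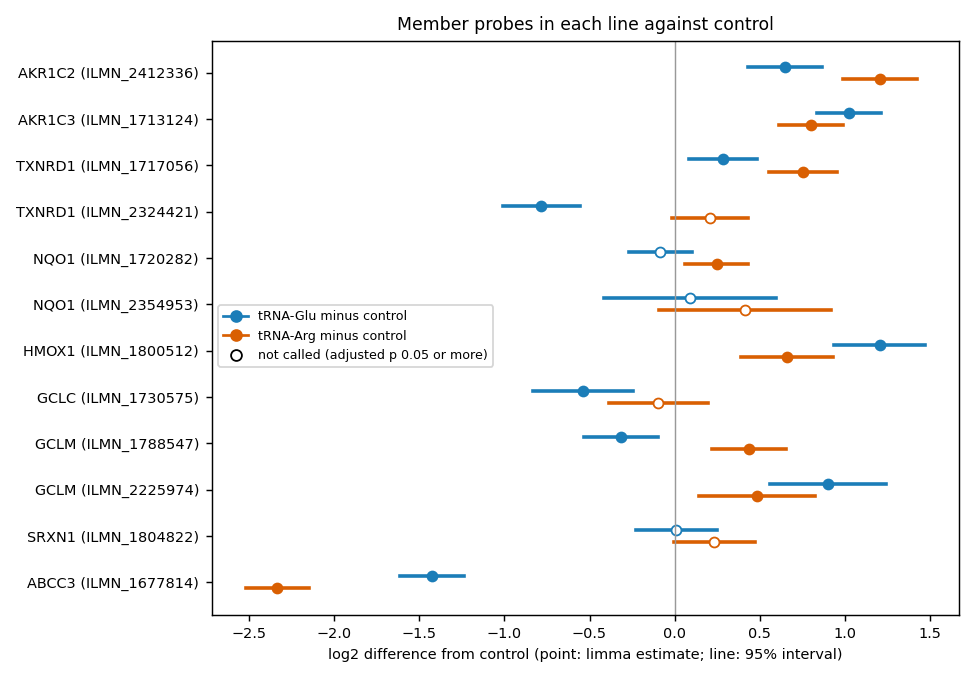
Log2 difference from control (horizontal axis) of each kept member probe for tRNA-Glu and tRNA-Arg cells, with points for the limma estimates, lines for 95% intervals and open points for differences not called. ABCC3 lies farthest below 0 in both lines, at -2.33 and -1.43, and TXNRD1 and GCLM each have 1 probe on either side of 0 in the tRNA-Glu line.

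The direct comparison of the lines asks whether the 2 tRNAs went with different levels of these genes. Of the 12 probes 8 were called, 2 higher and 6 lower in the tRNA-Glu than in the tRNA-Arg line, where 35.8% of all kept probes were called, 18.0% higher and 17.8% lower. Only 1 of the 12 had overlapping arrays, and 70.6% of all kept probes did not overlap. HMOX1 and ABCC3 were higher, ABCC3 by 0.91 ± 0.08 (1.88-fold, adjusted p = 0.00144). AKR1C2, both TXNRD1 probes, NQO1, GCLC and 1 GCLM probe were lower, the TXNRD1 probe ILMN_2324421 most, by 0.99 ± 0.10 (log2 difference -0.99, 1.99-fold, adjusted p = 0.00171). Under 5 other settings 4 probes were higher, AKR1C3 and GCLM ILMN_2225974 being added, and averaging the probes of each gene left 3 of 9 genes lower. The median difference of the 12 probes was -0.33, beside 0.02 over all kept probes. The GCLC call was lost without tRNA-Arg replicate 1 (-0.27), tRNA-Glu replicate 1 (-0.48) or 2 (-0.40) and with no detection filter (adjusted p = 0.0744). That of NQO1 was lost without any array of either line (-0.36 to -0.31), with median scaling (-0.20, adjusted p = 0.109) and when its probes were averaged (adjusted p = 0.0737).

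The mRNA of the regulator itself, NFE2L2, was lower in both lines. Its log2 levels were 10.36 and 10.50 in control, 9.92 and 9.93 in tRNA-Arg cells and 9.68 and 9.54 in tRNA-Glu cells. It fell by 0.50 in the tRNA-Arg line (1.42-fold, adjusted p = 0.00556) and by 0.82 in the tRNA-Glu line (1.76-fold, adjusted p = 0.000448). KEAP1 stood at 8.04 and 8.62 in control, 8.56 and 8.64 in tRNA-Arg cells and 8.77 and 8.97 in tRNA-Glu cells. It was higher in the tRNA-Glu line (0.54 ± 0.18, adjusted p = 0.0395) and not called in the tRNA-Arg line (0.26, adjusted p = 0.283), and its other probe differed by 0.49 and 0.20. BACH1 had no kept probe. NFE2L1, a related factor of proteasome genes, fell by 0.43 in the tRNA-Glu line (1.35-fold, adjusted p = 0.00522) and by 0.90 in the tRNA-Arg line (1.86-fold, adjusted p = 0.000447).

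Of 23 measured NRF2 regulators, 5 were called higher and 10 lower in the tRNA-Glu line and 3 and 6 in the tRNA-Arg line. Over all 10877 genes, each by its kept probe of highest mean, 30.3% were higher and 26.5% lower in the tRNA-Glu line, and 20.4% and 22.2% in the tRNA-Arg line. The list holds NFE2L2 as well as factors that act against NRF2, such as KEAP1, so its counts give no direction of NRF2 activity. ATF3, a stress factor that can repress NRF2, was 1.51-fold and 1.53-fold higher with tRNA-Glu and tRNA-Arg. GSK3B, a kinase that marks NRF2 for degradation, was 1.47-fold and 1.35-fold higher. PALB2, a DNA repair protein that also binds KEAP1, was 1.55-fold and 1.56-fold lower, and RARA, a retinoic acid receptor that can bind NRF2, was 1.53-fold lower in the tRNA-Arg line and not called in the tRNA-Glu line (-0.16). The median of the list was 0.02 in the tRNA-Glu line and -0.15 in the tRNA-Arg line, beside 0.04 and -0.02 over all genes, and other settings called 2 to 9 regulators higher in the tRNA-Glu line, while 6 were lower without control replicate 2, and 5 when tRNA-Glu replicate 1 was left out.

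Other NRF2 targets were more often higher than lower in both lines. Of 30 measured of 46 listed, 17 were called higher and 2 lower in the tRNA-Glu line (median 0.32), and 11 and 1 in the tRNA-Arg line (median 0.19). The shares of all genes were 30.3% higher and 26.5% lower in the tRNA-Glu line, and 20.4% and 22.2% in the tRNA-Arg line. This list, like the members, was chosen with earlier results of these data known. ALDH3A1, an aldehyde dehydrogenase, rose most in the tRNA-Glu line, from 6.91 and 6.93 in control to 8.56 and 8.75 (3.32-fold, adjusted p = 4.45e-05), and reached 7.92 and 7.80 in tRNA-Arg cells (1.92-fold). CBR3, a carbonyl reductase, was 2.26-fold higher in the tRNA-Glu line and 1.70-fold in the tRNA-Arg line. PTGR1, a prostaglandin reductase, was 1.58-fold higher in the tRNA-Glu line and 2.03-fold in the tRNA-Arg line, with log2 differences of 0.35 and 0.92 at its other probe. GSTA4, a glutathione transferase for lipid aldehydes, was 2.16-fold and 2.29-fold higher. GSTM3, of the same superfamily, fell by 0.91 in the tRNA-Glu line and by 1.30 in the tRNA-Arg line (2.45-fold, adjusted p = 0.000236). Without control replicate 2 the count higher in the tRNA-Glu line was 11.

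**Figure D4:**
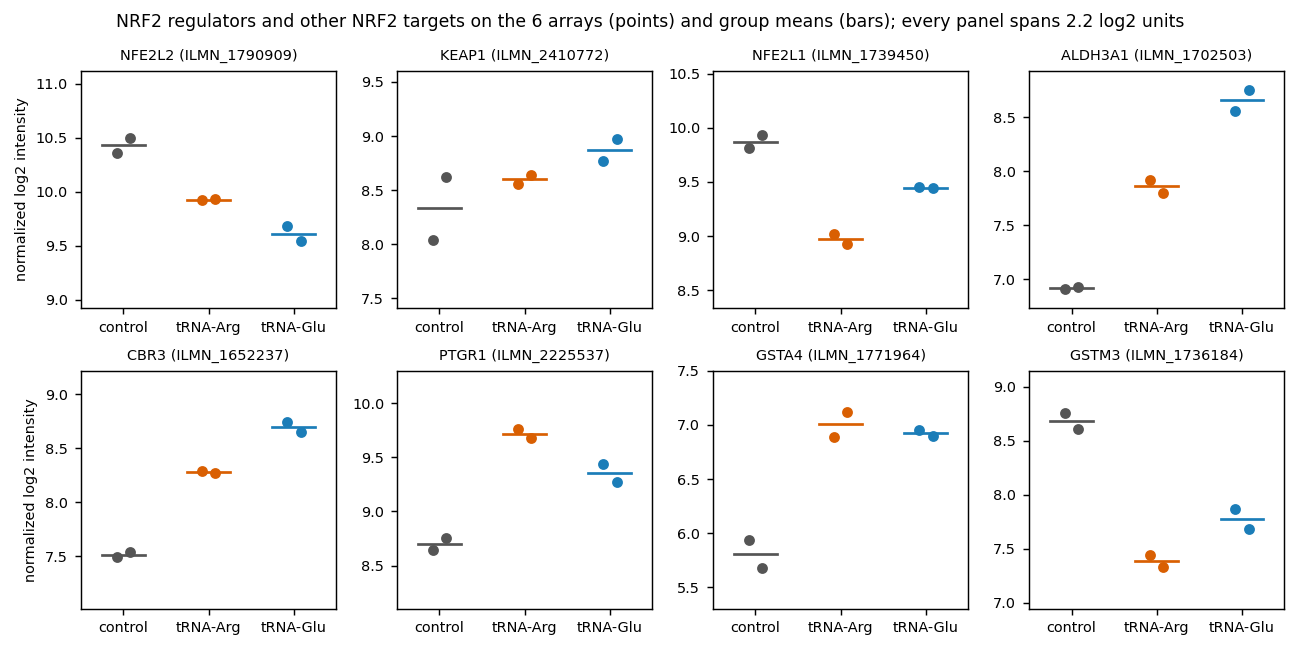
Normalized log2 intensity (vertical axis) of NFE2L2, KEAP1, NFE2L1, ALDH3A1, CBR3, PTGR1, GSTA4 and GSTM3 on each array (points), with bars for the means of control, tRNA-Arg and tRNA-Glu cells and the same span in every panel. NFE2L2 is highest in control, at 10.36 and 10.50, while ALDH3A1, CBR3, PTGR1 and GSTA4 are lowest there.

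Of the other aldo-keto reductases, 5 of 14 were measured, with 3 called higher in the tRNA-Glu line, 2 in the tRNA-Arg line and none lower. KCNAB1, 1 of the 5, was above background on only 1 of 2 arrays in each group. Among all genes 30.3% were higher and 26.5% lower in the tRNA-Glu line, and 20.4% and 22.2% in the tRNA-Arg line. AKR1C4, a liver enzyme of bile acid synthesis, was 1.45-fold and 1.86-fold higher, and its probe may read other AKR1C genes. AKR7A2, an aldehyde reductase, was 1.38-fold and 1.23-fold higher, and AKR7A3 was 1.33-fold higher in the tRNA-Glu line and not called in the tRNA-Arg line (0.20). The tRNA-Arg count fell to 1 without any 1 control or tRNA-Arg array.

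In the thioredoxin and peroxiredoxin system 7 of 23 measured genes were higher and 4 lower in the tRNA-Glu line, and 10 and 2 in the tRNA-Arg line, with medians of 0.10 and 0.21. Of all genes, 30.3% were higher and 26.5% lower in the tRNA-Glu line, and 20.4% and 22.2% in the tRNA-Arg line. The count higher in the tRNA-Glu line was thus near the share of all genes. PRDX1, a cytosolic peroxiredoxin, was 1.38-fold higher in the tRNA-Glu line and 1.58-fold in the tRNA-Arg line. Its other probe had log2 differences of 0.48 and 0.48. GLRX, glutaredoxin, was 1.69-fold and 1.56-fold higher with tRNA-Glu and tRNA-Arg. MSRB1, a methionine sulfoxide reductase, was 1.76-fold and 1.52-fold higher, and MSRB2, its mitochondrial relative, 1.61-fold and 1.25-fold higher. PRDX3, a mitochondrial peroxiredoxin, fell by 0.97 in the tRNA-Glu line (1.96-fold, adjusted p = 0.000137) and by 1.19 at its other probe, and was not called in the tRNA-Arg line (-0.14). SESN2, a stress protein, fell by 0.84 in the tRNA-Glu line (1.79-fold) and by 0.78 in the tRNA-Arg line (1.72-fold). The tRNA-Arg count higher was 6 without control replicate 1 and 5 without control replicate 2 or tRNA-Arg replicate 1.

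Of 28 measured genes of glutathione synthesis and use 10 were higher and 8 lower in the tRNA-Glu line, where 30.3% and 26.5% of all genes were, and 6 and 7 in the tRNA-Arg line, where 20.4% and 22.2% were. These shares were near those of all genes, and the list's medians were 0.17 and 0.07. GPX3, a secreted glutathione peroxidase, was 2.21-fold and 1.94-fold higher, MGST2, a microsomal transferase, 2.12-fold and 1.66-fold, and GSTK1 1.88-fold and 1.42-fold higher. GSTM3, given above, was among the genes of this list that were lower in both lines, and CHAC2 fell by 0.75 in the tRNA-Glu line. GPX7 stood at 5.79 and 5.78 in tRNA-Arg cells and 5.70 and 5.43 in tRNA-Glu cells, and at 4.71 and 4.68 in control, where only 1 of 2 arrays was above background, so no fold is given. With median scaling 16 of the 28 were higher in the tRNA-Glu line, and 5 were lower without control replicate 1, control replicate 2 or tRNA-Glu replicate 2. In the tRNA-Arg line 4 were lower without control replicate 2.

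Of 17 measured genes of heme metabolism and iron storage 6 were higher and 1 lower in the tRNA-Glu line, and 3 and 2 in the tRNA-Arg line, with medians of 0.16 and 0.04. The shares of all genes were 30.3% higher and 26.5% lower in the tRNA-Glu line, and 20.4% and 22.2% in the tRNA-Arg line. Those higher in the tRNA-Glu line included BLVRA, BLVRB, FTL, SLC48A1 and ABCB6, which were already counted among the other NRF2 targets. BLVRA, the biliverdin reductase that acts after HMOX1, was 1.58-fold and 1.34-fold higher. UROD, of heme synthesis, was 1.51-fold and 1.30-fold higher, and ABCB6, a porphyrin carrier, 1.39-fold higher in the tRNA-Glu line and not called in the tRNA-Arg line (0.24, adjusted p = 0.0513). ALAD, another enzyme of heme synthesis, fell by 0.74 in the tRNA-Glu line and by 1.13 in the tRNA-Arg line (2.19-fold, adjusted p = 2e-04), while its other probe differed by 0.14 and 0.26 and was not called. PPOX, of the same pathway, was 1.59-fold lower in the tRNA-Arg line and not called in the tRNA-Glu line (-0.24). The count higher in the tRNA-Glu line was 3 with no detection filter and without control replicate 2 or tRNA-Glu replicate 1, and that in the tRNA-Arg line was 5 under 4 other settings.

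Of the other ABCC transporters only ABCC4, ABCC5 and ABCC10 had a kept probe. Of these 3, none was called higher and 1 lower in the tRNA-Glu line, and 1 higher and 2 lower in the tRNA-Arg line. The shares over all genes were 30.3% higher and 26.5% lower in the tRNA-Glu line, and 20.4% and 22.2% in the tRNA-Arg line. ABCC4, which exports cyclic nucleotides, fell by 0.49 in the tRNA-Glu line (1.41-fold, adjusted p = 0.00458) and was 1.28-fold higher in the tRNA-Arg line (adjusted p = 0.0245). Its other probe differed by -0.18 (adjusted p = 0.22) and 0.70 (adjusted p = 0.00352). ABCC5 was 1.24-fold lower and ABCC10 1.35-fold lower in the tRNA-Arg line, and neither was called in the tRNA-Glu line (0.09 and -0.18). The other ABCC5 probe fell by 0.56 in the tRNA-Glu and by 0.90 in the tRNA-Arg line, so the 2 probes disagreed in tRNA-Glu cells. Without any 1 control or tRNA-Arg array the lower count in the tRNA-Arg line was 1 or 0. The tRNA-Arg call of ABCC4 was lost without control replicate 1 or 2 or tRNA-Arg replicate 1.

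**Figure D5:**
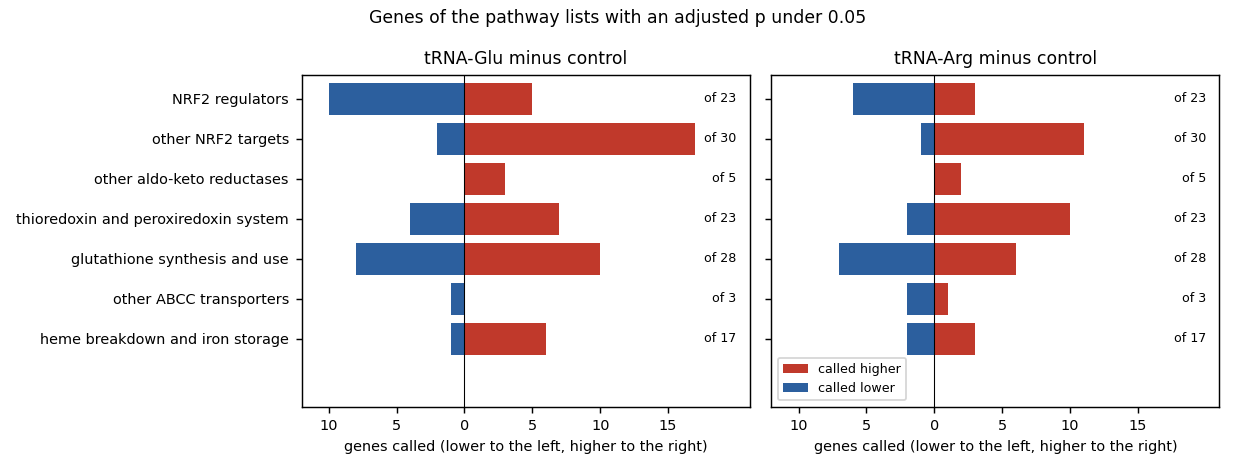
Number of genes called higher (right of 0) or lower (left of 0) against control in each pathway list, for the tRNA-Glu and tRNA-Arg lines, with the number measured at the right. Among other NRF2 targets 17 and 11 of 30 were called higher and 2 and 1 lower. Among NRF2 regulators 5 and 3 of 23 were called higher and 10 and 6 lower. Of all genes 30.3% and 20.4% were higher and 26.5% and 22.2% lower.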

How the data were processed

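RNA of 6 samples was measured on Illumina BeadChips. The deposited intensity values of the authors were non-normalized and linear, per the file headers, and each came with a detection p-value. A second deposited table held intensity values the authors had processed, whose array medians were 39.6 or 39.7 and whose ranks were those of the non-normalized values, and another deposited table held log fold changes per gene symbol, taken as log2, with no stated sign or base. The submitters' processing notes name lumi without settings.

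Intensities were corrected and quantile normalized with neqc (limma 3.58.1, R 4.3.3; offset 16). Of 47323 probes, 30113 had 1 gene symbol in the platform annotation, 8 several and 17202 none. 1 fit over the 3 groups (lmFit, eBayes, 3 residual and 4.08 prior degrees of freedom) covered 18106 probes, with Benjamini-Hochberg adjustment over all of them. A list gene was read by its kept probe of highest mean. Some genes stood in more than 1 list, so the list counts are not from separate sets of genes. The alternatives changed the background correction, normalization, detection filter, arrays in the fit, variance prior, pairing and choice of probe, or left out 1 array. The probe ratio was added after the data were seen. The fit was tested on simulated data.

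Members and lists were chosen with earlier results of these data known. All kept member probes, NFE2L2, KEAP1 and BACH1 were named. Each list gave up to 4 called genes of smallest p whose arrays did not overlap control, per line. For AKR1C1 and ABCC3 the 3 genes of nearest profile were to be named, and AKR1C1 had no kept probe. The number of arrays limits the precision.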

Additional observations from a re-analysis of the deposited data

Results flagged for a closer look

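These differences between the tRNA-Glu and tRNA-Arg lines (tRNA-Glu minus tRNA-Arg, log2, limma) were each called in their own test, 2 arrays per line. AKR1C2 differed by -0.56, TXNRD1 by -0.47 at ILMN_1717056 and -0.99 at ILMN_2324421, NQO1 by -0.33 at ILMN_1720282, GCLC by -0.44 and GCLM by -0.75 at ILMN_1788547. The other GCLM probe, ILMN_2225974, went the opposite way and was not called (0.41, adjusted p = 0.0614). HMOX1 differed by 0.55 and ABCC3 by 0.91. The calls of NQO1, GCLC and HMOX1 were each lost when certain single arrays were left out. The log2 ratio of 2 probes differed by 0.52 for TXNRD1 (adjusted p = 0.0333) and by -1.17 for GCLM (adjusted p = 0.0067), where 11% of 2855 genes were called. The TXNRD1 ratio lost its call without any array of either line (0.42 to 0.61) and with the replicate number as a block. Groups of 2 arrays are too small for a test of single arrays that stand apart.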

How the results depend on the processing

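AKR1C2, AKR1C3, HMOX1 and ABCC3 kept their calls against control in all 19 alternatives. Of 675 alternative values of member probes 609 kept direction and side of the threshold, 37 lost and 19 gained a call and 10 changed sign, and of 153 values of probe ratios 133 kept both, 9 lost a call and 11 changed sign. Of 756 list counts 98 moved by over 1.5 times.

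With 1 probe per gene 6474 of 10877 were called in the tRNA-Glu line, a larger share than the 9727 of 18106 kept probes. Between the lines 4 member probes were higher, against 2, with no background correction, offset 50, the authors' processed table, detection on all 6 arrays, or an intensity trend and robust prior. After averaging the probes of each gene 3 of 9 genes were lower, where 6 of 12 probes, from 5 genes, had been lower. Leaving out 1 array gave 7553 to 9492 calls in the tRNA-Glu line, 4863 to 7017 in the tRNA-Arg line and 3067 to 6296 between them. Member probes called were then 7 to 9, 5 to 7 and 5 to 8, with 4 to 6 higher in the tRNA-Arg line and 1 to 2 higher between the lines. A lone array was assumed to vary like the other groups.

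Signs changed as follows, and the cause was not tested. With median scaling, NQO1 ILMN_1720282 was 0.20 in the tRNA-Glu line, the NQO1 ratio 0.14, 0.021 and 0.12 in the tRNA-Glu, tRNA-Arg and direct comparisons, and the GCLM ratio 0.041 in the tRNA-Arg line (0.0095 with offset 50). Cyclic loess gave -0.0081 for SRXN1 in the tRNA-Glu line and 0.033 for the NQO1 ratio between the lines. Averaging them gave -0.25 for TXNRD1, 0.0040 for NQO1 and 0.29 for GCLM in the tRNA-Glu line, and -0.17 for GCLM between the lines. Without 1 array, the tRNA-Glu difference was -0.11 to 0.29 for NQO1 ILMN_2354953 and -0.037 to 0.060 for SRXN1. The tRNA-Arg difference was -0.27 to 0.075 for GCLC, -0.415 to 0.081 for the NQO1 ratio and -0.16 to 0.061 for the GCLM ratio, and the NQO1 ratio between the lines was -0.26 to 0.24.

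Same-numbered arrays did not deviate together over all kept probes (r = 0.03, -0.02 and -0.01), so no pairing was seen. A shared effect that is small or confined to some probes could be missed in this way. With the replicate block 9494, 6855 and 6049 probes were called in the tRNA-Glu, tRNA-Arg and direct comparisons, and the tRNA-Arg call of NQO1 and the TXNRD1 ratio between the lines were lost. AKR1C1 lay at background on every array, so its level is not known.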
